A study of Mus musculus with 15 samples.

Results

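Described here are 40 genes of fatty acid oxidation, ketone body formation and the response to the nuclear receptor PPAR-alpha, chosen by symbol from 17527 genes of a liver RNA sequencing table. All 40 were found, and all 40 passed the filter of a mean of at least 1 FPKM (fragments scaled to gene length and library size, so that levels can be compared between genes). The study sequenced 15 mouse liver samples in 3 groups of 5: control, a diet-induced nonalcoholic steatohepatitis group (model) and diet-fed mice given biotransformed bear bile powder (BBBPH, also labelled JDH). Model and BBBPH mice ate a diet with 60% of its energy from fat, 20% from protein and 20% from carbohydrate, with 0.2% cholesterol, and drank water with 42 g/L of sugar, made of 55% sucrose and 45% fructose. They were killed after 20 weeks. After week 12, BBBPH mice received 150 mg/kg of the powder by mouth each day (14 mice in that arm), and model mice received saline. The strain, sex and age, the diet and gavage of the control mice, and feeding state and hour at death are not given in the sources used here, and no genetic change is named. That the libraries of a group came from separate animals is not stated for each library, so p-values measure the spread between these samples.

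Fatty acids that enter the liver cell are joined to coenzyme A, carried into mitochondria by the carnitine shuttle and shortened there step by step by beta-oxidation, which passes electrons to the respiratory chain and yields acetyl-CoA. In the fasted liver much of that acetyl-CoA becomes ketone bodies, while very long chains are first shortened in peroxisomes and some chains are hydroxylated at their far end by CYP4A enzymes. PPAR-alpha, activated by fatty acids and paired with an RXR receptor, binds DNA at direct repeats of a short motif and raises the transcription of many of these genes, and it follows feeding and the time of day.

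Promoter sequences show which of these genes carry such a repeat near their start. RefSeq's table for build GRCm38.p6 held a promoter (250 bases before to 50 after the start) for 33 of the 40 genes. The motif AGGTCANAGGTCA, read on both strands with up to 2 mismatches at its 12 fixed positions, was found in 5 of these 33 (15.2%), against 4.40% of all 27025 genes in the table. With up to 1 mismatch it was found in 1 of the 33, Fabp1, against 0.644% of genes. Windows of 60 bases are shown for 4 of the 5, to set the match beside the levels below. Fabp1 was called in BBBPH against model and against control, Acot4 in BBBPH against model, Creb3l3 in BBBPH against control and Etfa in no comparison. Whether a match goes with a call was not tested. Each is written 5′ to 3′ on the gene's strand, with the matching bases in capitals.
Fabp1: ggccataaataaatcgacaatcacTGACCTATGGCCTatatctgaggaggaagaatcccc
Acot4: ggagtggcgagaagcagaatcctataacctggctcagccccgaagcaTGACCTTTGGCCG
Creb3l3: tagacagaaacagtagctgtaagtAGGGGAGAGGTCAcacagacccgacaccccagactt
Etfa: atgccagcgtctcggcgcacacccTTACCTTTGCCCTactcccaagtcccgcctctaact
The Fabp1 window lies at chr6:71199788-71199847 on the plus strand, and its match stands 67 to 55 bases before the start, on the opposite strand, with 1 mismatch. The Acot4 window lies at chr12:84038319-84038378 on the plus strand, and its match ends 1 base before the start, on the opposite strand, with 2 mismatches. The Creb3l3 window lies at chr10:81092765-81092824 on the minus strand, with a match 209 to 197 bases before the start on the gene's own strand and 2 mismatches. That start is RefSeq's, and the Creb3l3 window lies inside the gene as placed by GENCODE M21 (chr10:81084324-81098874). The Etfa window lies at chr9:55512285-55512344 on the minus strand, with a match 77 to 65 bases before the start on the opposite strand and 2 mismatches. The fifth gene, Slc25a20, had its match 7 to 19 bases after the start and was called in model against control. A match describes letters only and is neither a site nor a cause, and no other repeat or more distant sequence was searched.

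The libraries rested on 35395712 to 39624160 fragments, and the lowest count of any of the 40 genes in any library was 111 fragments. Hepatocyte markers (9 of 10 in the table, with Alb, Ttr and Apoa1) summed to 70938 to 79489 FPKM in control, 51446 to 67664 in model and 65715 to 76832 in BBBPH libraries. Alb was the largest part of this sum, and the markers did not all go 1 way. In model against control 3 of the 9 were called lower and 0 higher. Their log2 fold changes ran from -0.55 to 0.48, with a median of -0.05. All 8 stellate cell markers were higher in model than in control (summed 235 to 271 against 175 to 203 FPKM), and 4 of 8 were lower in BBBPH (206 to 224) than in model. Macrophage markers summed to 213 to 290, 221 to 363 and 256 to 445 FPKM in control, model and BBBPH. The summed adipocyte list was 599.9 to 1384, 1509 to 3981 and 742 to 1057 FPKM, nearly all of it Car3, which hepatocytes also express, with Adipoq and Plin1 near 0. Libraries stood apart in other markers: control 2_1 held 322 FPKM of muscle markers (at most 2.12 elsewhere), BBBPH 2_2 held 3858 FPKM of pancreatic markers, and model 1_4 held 255 FPKM of cholangiocyte markers, mostly Spp1. Neutrophil markers summed to 2.54 to 38.3, 12.6 to 80.0 and 6.79 to 138 FPKM in the same order of groups, highest in BBBPH 2_2 and next in model 1_4, and 2 of 5 tested were called higher in model than in control. The part of these in the results below was not tested. Fewer cells of a type and less RNA per cell cannot be told apart in whole liver.

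Most of the genes that passed the test were higher in the diet-fed groups than in control, and fewer were called in BBBPH against model, in both directions. In model against control, 14 of the 40 genes were called higher (35.0%) and 0 lower, against 29.9% and 8.64% of the 9575 genes tested (38.6% in either direction). In BBBPH against model, 9 were called higher (22.5%) and 3 lower (7.5%), against 14.2% and 12.2% of all genes (26.5% in either direction). In BBBPH against control, 21 were called higher (52.5%) and 0 lower, against 24.4% and 3.7% (28.1% in either direction). A call was an adjusted p under 0.05 from limma, on log2(FPKM + 1), with Benjamini-Hochberg adjustment over all genes tested. At an unadjusted p under 0.05, limma gave 1 gene lower in model against control and 0 in BBBPH against control. So did voom on read counts recovered from the FPKM, and counts over all genes at this threshold are not given here. Voom also called 0 of the 40 lower in both, against 832 and 358 of the 9567 genes in that fit. Single libraries moved some counts: without control 2_1 or without BBBPH 3_4, BBBPH against control had 13 calls, and without model 1_4, BBBPH against model had 5 lower. Without control 2_1, model against control had 2 lower, and without model 1_1 it had 1. Counts over all genes are not given here for these fits, so these shifts cannot be set against the background. In FPKM the counts in either direction stood near the background in model against control and in BBBPH against model, and above it in BBBPH against control. With median-ratio scaling BBBPH against control had 5 higher and 0 lower (all genes 667 and 944). That count in either direction did not stand above the background, although the share of higher calls alone was larger among the 40 genes. With quantile scaling the same comparison had 12 higher and 0 lower (all genes 691 and 849), above the background in either direction. The result thus depended on the scaling. The 3 comparisons share libraries, so they are not independent of each other.

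The median log2 fold change of the 40 genes was 0.17 in model against control (0.12 over all genes) and 0.11 in BBBPH against model (0.02). It was 0.32 in BBBPH against control (0.13). Without model 1_4 the median in BBBPH against model was 0.03, and over all fits without 1 library it ranged from 0.03 to 0.15. All 40 values lay above 0 in BBBPH against control, 31 in model against control and 28 in BBBPH against model. Scaling mattered, since median-ratio scaling moved the median of all genes in model against control from 0.12 to -0.01 and in BBBPH against control from 0.13 to -0.01. Relative to the median of all genes, the 40 genes' median was 0.05, 0.09 and 0.19 in FPKM, and 0.02, 0.09 and 0.17 after median-ratio scaling, in the order above. With quantile scaling these relative medians were 0.13, 0.06 and 0.24. With median-ratio scaling, calls in model against control were 8 higher and 4 lower (all genes 1483 and 1809, in FPKM 2865 and 827), with Cpt1a, Acaa2, Eci2 and Acot3 lower. With quantile scaling they were 12 higher and 2 lower (all genes 1499 and 1742), with Eci2 and Acot3 lower. Calls in BBBPH against control were 5 higher with median-ratio scaling (all genes 667 higher and 944 lower) and 12 higher with quantile scaling (691 and 849). In BBBPH against model the calls stayed at 8 or 9 higher and 2 or 3 lower across FPKM, TPM, median-ratio and quantile values. Over all genes these were 1182 to 1439 higher and 1169 to 1307 lower.

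Called under all 4 of these scalings were 8 genes in model against control, namely Acadm, Etfdh, Hadh, Eci1, Ech1, Pex11a, Bdh1 and Vnn1, all higher. For BBBPH against model they were Ppara, Cpt1a, Acadl, Acaa2, Eci2, Acot3 and Acot4, higher, and Acadm and Etfdh, lower. For BBBPH against control they were Ppara, Acadl, Ech1, Bdh1 and Vnn1, all higher. Counts over all genes called under all 4 scalings are not given here, so these sets cannot be set against a background. Libraries of the 2 groups did not overlap for 10 higher and 0 lower genes in model against control (18.8% and 5.07% of all genes tested). In BBBPH against model they did not overlap for 8 higher and 2 lower genes (9.11% and 7.9% of all genes), and for BBBPH against control they did not for 15 higher and 0 lower genes (15.3% and 2.22%).

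**Figure D1:**
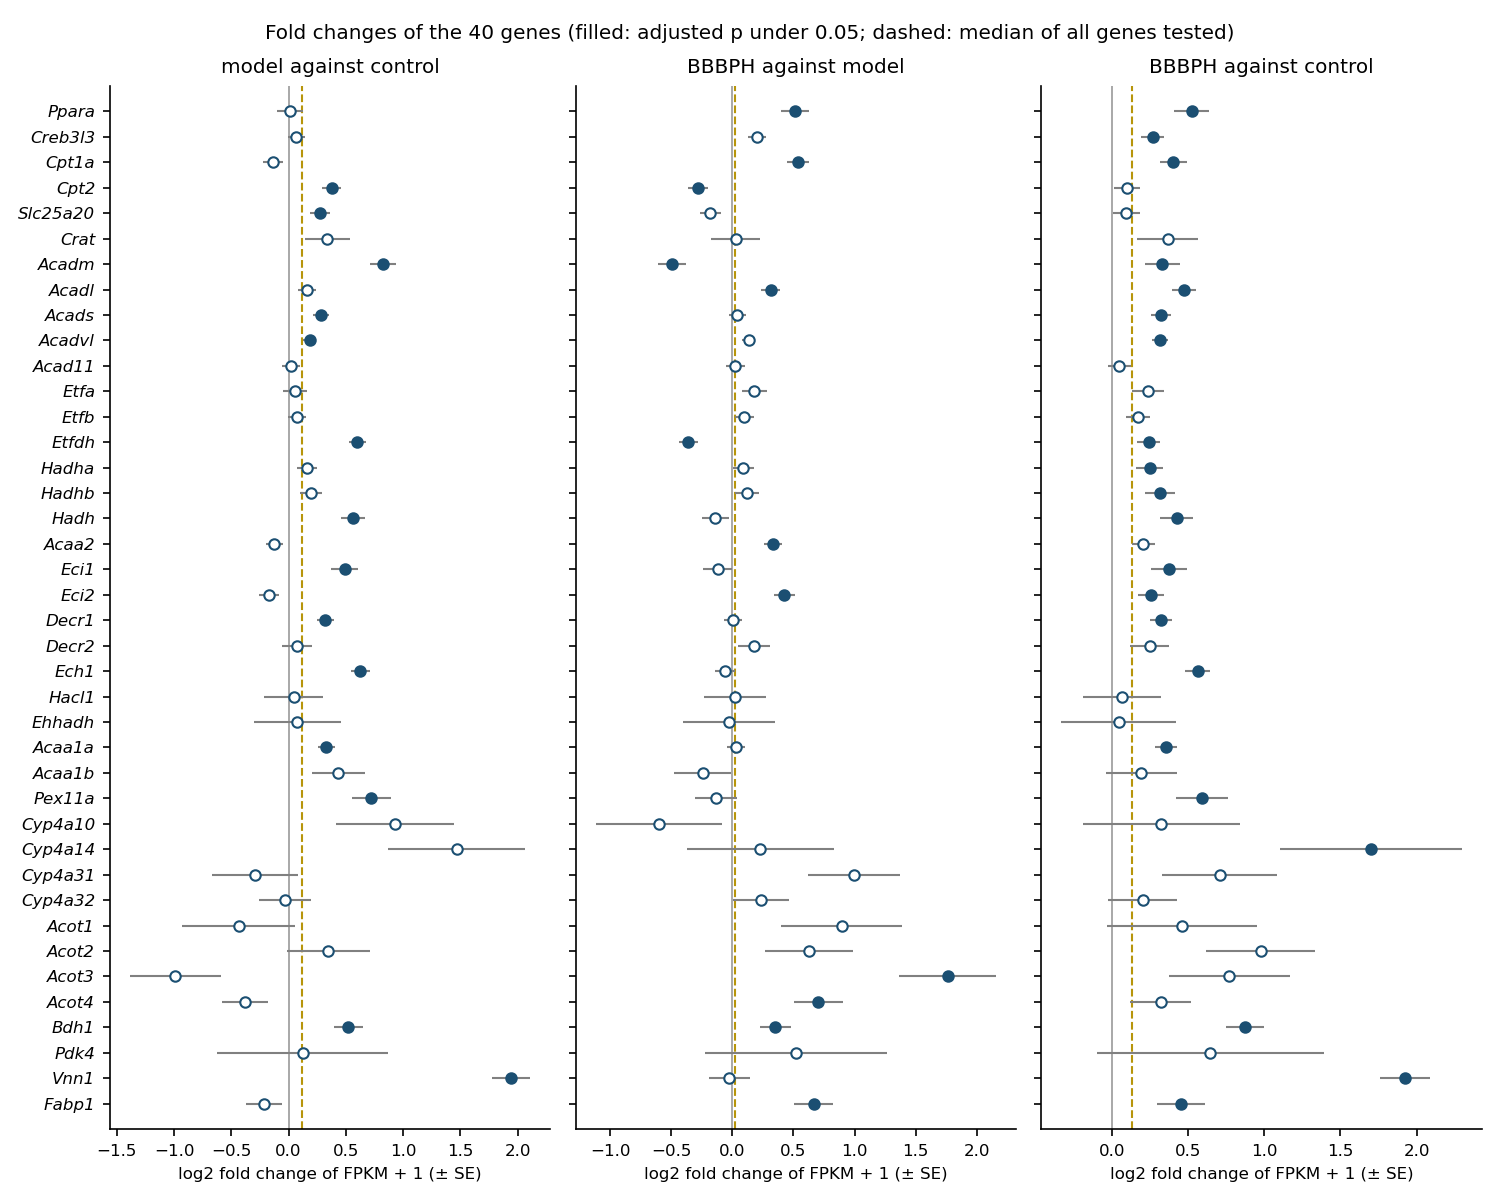
Log2 fold change of FPKM + 1 (x axis, ± SE) for each of the 40 genes (y axis, ordered by role) in the 3 comparisons, with filled points for an adjusted p under 0.05 and a dashed line at the median of all genes tested. Filled points number 14, 12 and 21, and Vnn1 stands farthest right in model against control and in BBBPH against control, at 1.95 and 1.92.

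Both transcription factors were called higher in BBBPH than in control, and Ppara was also called against model. Ppara (chr15:85734983-85802819, GRCm38), which encodes PPAR-alpha itself, measured 27.3, 37.6, 40.1, 38.2 and 40.6 FPKM in control libraries 1_1, 1_5, 2_1, 2_2 and 3_4. In model libraries 1_1, 1_4, 2_1, 2_3 and 3_4 it measured 34.4, 30.8, 45.2, 39.0 and 35.6, and in BBBPH libraries 2_1, 2_2, 3_1, 3_2 and 3_4 it measured 59.0, 48.1, 57.4, 52.5 and 48.2, and this order of libraries is kept for all values that follow. Every BBBPH library was above every model and control library. Means were 36.8 ± 5.41, 37.0 ± 5.47 and 53.0 ± 5.07 FPKM (SD, n = 5). The log2 fold change was 0.51 ± 0.12 (SE, limma adjusted p = 0.00416) against model and 0.53 ± 0.12 (limma adjusted p = 0.00473) against control, while model against control gave 0.01 ± 0.12 (limma adjusted p = 0.948). Creb3l3, a liver factor that acts with PPAR-alpha during fasting, averaged 128 ± 5.71, 134 ± 9.05 and 155 ± 14.8 FPKM and was called in BBBPH against control alone (0.27 ± 0.07, limma adjusted p = 0.0158). That call ended with median-ratio and with quantile scaling (limma adjusted p = 0.426 and 0.118).

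Members of the carnitine shuttle moved in different directions. Cpt1a, the outer-membrane transferase that sets the pace of entry into mitochondria, measured 131, 129, 131, 121 and 118 FPKM in control, 106, 99.3, 135, 129 and 108 in model and 165, 157, 155, 169 and 190.2 in BBBPH. All BBBPH libraries were above the rest, and 3 of the 5 model libraries lay below all of control. It rose by 0.54 ± 0.09 on the log2 scale in BBBPH against model (limma adjusted p = 0.000433) and by 0.40 ± 0.09 against control (limma adjusted p = 0.00449), the latter not with median-ratio scaling (limma adjusted p = 0.0585). In model against control it stood at -0.13 ± 0.09 (limma adjusted p = 0.236), and median-ratio scaling alone called it lower there (limma adjusted p = 0.0103). Cpt2, the inner-membrane transferase that hands the chain back to coenzyme A, went the other way, with means of 71.2 ± 5.97, 92.6 ± 2.32 and 76.6 ± 9.92 FPKM. It was 0.38 ± 0.08 higher in model than in control (limma adjusted p = 0.00269) and 0.28 lower in BBBPH than in model (log2 fold change -0.28 ± 0.08, limma adjusted p = 0.0225). The first of these calls ended with median-ratio and quantile scaling (limma adjusted p = 0.107 and 0.0511). The second ended without BBBPH 2_2 or without BBBPH 3_2 (limma adjusted p = 0.0601 to 0.062), with quantile scaling (limma adjusted p = 0.0682), and without both model 1_4 and BBBPH 2_2 (limma adjusted p = 0.0814).

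Slc25a20, the carrier that swaps acylcarnitine for carnitine, averaged 87.9 ± 10.7, 106 ± 5.87 and 93.6 ± 8.12 FPKM. It was called in model against control (0.27 ± 0.09, limma adjusted p = 0.0227), but not without model 2_3 (limma adjusted p = 0.0574) or with the 2 scalings that centre the libraries. Crat, the short-chain carnitine acetyltransferase, was called in no comparison, at 19.3 ± 6.08, 23.9 ± 1.91 and 25.2 ± 7.6 FPKM.

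Acyl-CoA dehydrogenases take the first electrons from a chain, each at its own chain length, and pass them through ETF (Etfa, Etfb) to ETF dehydrogenase (Etfdh). Of these 8 genes, 4 were called higher in model against control, 1 higher and 2 lower in BBBPH against model and 5 higher in BBBPH against control. Over all genes tested, 29.9% were higher in the first comparison, 14.2% higher and 12.2% lower in the second and 24.4% higher in the third, and the same shares are the background of the other groups of genes below. Acadm, the medium-chain enzyme, measured 185, 209, 185, 194 and 210.2 FPKM in control, 399, 246, 376, 344 and 405 in model and 241, 238, 231, 246 and 283 in BBBPH. Every model library was above every control library, with model 1_4 far below the other 4 and within the BBBPH range. Acadm was 0.82 ± 0.11 higher on the log2 scale in model than in control (limma adjusted p = 8.95e-05). In BBBPH it fell against model (-0.49 ± 0.11, limma adjusted p = 0.00519) and was above control (0.33 ± 0.11, limma adjusted p = 0.0426). This last call ended when any 1 control or BBBPH library, or model 2_3, was left out (limma adjusted p = 0.0504 to 0.0993), although the libraries did not overlap. It was also lost in other settings, among them median-ratio and quantile scaling (limma adjusted p up to 0.402).

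Etfdh followed a like course, at 144, 149.6, 133, 134 and 161 FPKM in control, 231, 193, 229, 231 and 213 in model and 183, 153, 168, 163 and 186 in BBBPH. All model libraries were above all of the others, and BBBPH overlapped with control. Against control, model was 0.60 ± 0.08 higher (limma adjusted p = 5.08e-05). BBBPH was lower than model (-0.36 ± 0.08, limma adjusted p = 0.00314) and higher than control (0.24 ± 0.08, limma adjusted p = 0.0315). The call against control ended without control 1_1, 2_1 or 2_2 or without BBBPH 2_1 or 3_4 (limma adjusted p = 0.0554 to 0.0754). It also ended with median-ratio and quantile scaling (limma adjusted p up to 0.641).

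Acadl, the long-chain enzyme, rose with BBBPH instead of falling. Its levels were 140.0, 153, 134, 149 and 148 FPKM in control, 171, 131, 169.8, 171 and 169.9 in model and 189, 209.8, 201, 205 and 202 in BBBPH. BBBPH libraries were above all others, and model 1_4 alone of the model libraries lay below control. The log2 fold change was 0.31 ± 0.08 against model (limma adjusted p = 0.00746) and 0.47 ± 0.08 against control (limma adjusted p = 0.000836). Acads (short-chain) and Acadvl (very-long-chain) were higher in both diet-fed groups than in control. Acads averaged 84.0 ± 4.49, 103 ± 8.07 and 105 ± 6.07 FPKM, with 0.28 ± 0.07 in model (limma adjusted p = 0.00439) and 0.32 ± 0.07 in BBBPH (limma adjusted p = 0.00366). Acadvl averaged 193 ± 7.97, 219 ± 7.62 and 240.4 ± 9.68 FPKM, with 0.18 ± 0.06 in model (limma adjusted p = 0.0162) and 0.32 ± 0.06 in BBBPH (limma adjusted p = 0.00125). Median-ratio scaling ended these 4 calls (limma adjusted p = 0.141 and 0.123 for Acads, 0.755 and 0.0955 for Acadvl). Acad11, which takes long chains, averaged 171 ± 11.1, 174 ± 18.9 and 176 ± 4.37 FPKM and was called in no comparison. The ETF subunits Etfa (32.8 ± 3.52, 34.4 ± 4.97 and 38.9 ± 3.19 FPKM) and Etfb (329.6 ± 23.4, 347 ± 32.2 and 371 ± 22.6) were not called either. Etfb shared 67.3% of its 50-base windows with another annotated transcript, Gm45233, so its count is uncertain.

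**Figure D2:**
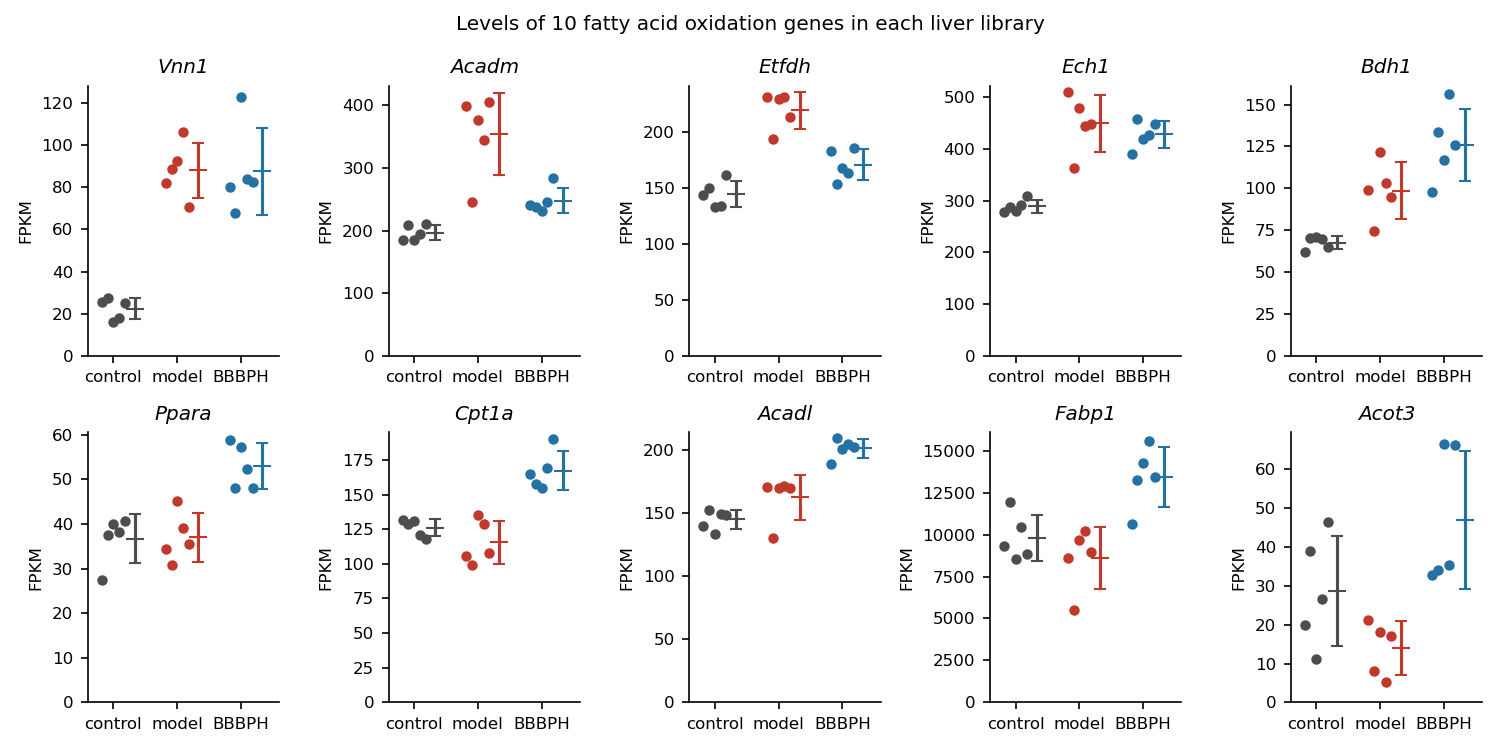
FPKM (y axis, from 0) of 10 of the genes in each of the 15 libraries, with 1 point per library and a bar at the mean ± SD beside each group. Acadm and Etfdh stood highest in model, Ppara, Cpt1a, Acadl and Fabp1 stood highest in BBBPH, and Vnn1 was at 16.1 to 27.4 FPKM in control against 67.9 to 123 in the diet-fed libraries.

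The later mitochondrial steps are run by the trifunctional protein (Hadha, Hadhb), by Hadh for shorter chains and by the thiolase Acaa2. Of these 4 genes, Hadh alone was called in model against control. Hadh measured 203, 232, 198, 203 and 169 FPKM in control, 346, 232, 319, 293 and 304 in model and 257, 285, 235, 268 and 305 in BBBPH. Model 1_4 was level with the highest control library, and BBBPH did not overlap with control. Log2 fold changes were 0.56 ± 0.11 in model (limma adjusted p = 0.00103) and 0.42 ± 0.11 in BBBPH (limma adjusted p = 0.0106) against control, the latter not with median-ratio scaling (limma adjusted p = 0.128). Acaa2 averaged 633 ± 27.5, 583 ± 60.0 and 729 ± 22.6 FPKM and was 0.33 ± 0.07 higher in BBBPH than in model, with no overlap (limma adjusted p = 0.0043). Every BBBPH library was also above every control library. That comparison just missed a call in FPKM (limma adjusted p = 0.0504) and was called higher with quantile scaling.

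Hadha averaged 182 ± 22.0, 202 ± 18.9 and 215 ± 12.9 FPKM, and Hadhb averaged 42.5 ± 5.03, 49.0 ± 6.53 and 53.0 ± 3.42. Both were called in BBBPH against control alone, at 0.25 ± 0.09 (limma adjusted p = 0.0455) and 0.32 ± 0.10 (limma adjusted p = 0.0258). The Hadha call ended when any 1 library other than control 3_4 or model 1_4 was left out (limma adjusted p = 0.0512 to 0.104). In other settings it also ended, among them TPM, median-ratio and quantile values (limma adjusted p up to 0.624). The Hadhb call ended without control 1_1, 2_1 or 2_2 or without BBBPH 3_1 or 3_4 (limma adjusted p = 0.0555 to 0.0607). Median-ratio and quantile scaling ended the Hadhb call as well (limma adjusted p up to 0.344). Of the Hadhb windows, 62.4% are shared with Gm13910 or Gm9108.

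Auxiliary enzymes prepare unsaturated and branched chains for the cycle. Of 6 such genes, 3 were called higher in model and 4 in BBBPH when each was set against control, and 1 was called higher in BBBPH against model. Ech1, an isomerase for double bonds of unsaturated chains, measured 279, 288, 279.6, 292 and 310.1 FPKM in control, 510.2, 364, 479, 445 and 449 in model and 391, 458, 419, 428 and 449 in BBBPH. Every library of the diet-fed groups was above every control library, and the diet-fed groups overlapped. The log2 fold change was 0.62 ± 0.08 in model (limma adjusted p = 6.21e-05) and 0.56 ± 0.08 in BBBPH (limma adjusted p = 0.000469). Decr1, the mitochondrial dienoyl-CoA reductase, averaged 81.0 ± 6.61, 102 ± 7.49 and 102 ± 6.29 FPKM, 0.32 ± 0.07 above control in both diet-fed groups (limma adjusted p = 0.0031 and 0.00547). Both of these calls ended with median-ratio scaling (limma adjusted p = 0.0926 and 0.169).

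Eci1 and Eci2, enoyl-CoA isomerases, differed from each other. Eci1 averaged 119.8 ± 12.8, 171 ± 30.4 and 155 ± 10.9 FPKM, 0.49 ± 0.12 above control in model (limma adjusted p = 0.00441) and 0.37 ± 0.12 above it in BBBPH (limma adjusted p = 0.0286). The second call ended without control 2_1, 2_2 or 3_4 or without BBBPH 3_2 or 3_4 (limma adjusted p = 0.0515 to 0.0672). Median-ratio and quantile scaling ended it too (limma adjusted p up to 0.268). Eci2 averaged 95.6 ± 11.3, 84.8 ± 8.35 and 114 ± 4.06 FPKM, 0.43 ± 0.09 higher in BBBPH than in model (limma adjusted p = 0.00214) and 0.26 ± 0.09 higher than in control (limma adjusted p = 0.0378). The call against control ended without control 1_1, 2_1 or 3_4 or without any 1 BBBPH library (limma adjusted p = 0.0502 to 0.0917). It was also lost in other settings, among them median-ratio and quantile scaling (limma adjusted p up to 0.551). Decr2, the peroxisomal reductase (140.1 ± 27.2, 146 ± 19.4 and 165 ± 18.0 FPKM), and Hacl1, which cuts hydroxylated and branched chains (83.9 ± 27.5, 84.3 ± 20.4 and 86.9 ± 24.7), were called in no comparison. Hacl1 shared 55.6% of its windows with Gm49387.

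Peroxisomal oxidation was represented by Ehhadh, the bifunctional enzyme, the thiolases Acaa1a and Acaa1b, and Pex11a, which takes part in peroxisome division. Pex11a measured 55.1, 62.0, 41.0, 54.3 and 75.2 FPKM in control, 94.8, 90.5, 96.0, 103 and 85.7 in model and 105, 62.5, 122, 71.4 and 80.0 in BBBPH. Model libraries lay close together and above all of control, and BBBPH libraries were spread across both ranges. Pex11a was 0.72 ± 0.17 higher on the log2 scale in model (limma adjusted p = 0.00389) and 0.59 ± 0.17 higher in BBBPH (limma adjusted p = 0.0185) than in control, the second not with median-ratio or quantile scaling (limma adjusted p = 0.0765 to 0.122). Acaa1a averaged 78.4 ± 8.02, 98.5 ± 5.31 and 100.5 ± 6.89 FPKM, 0.33 ± 0.07 higher in model and 0.36 ± 0.07 higher in BBBPH than in control (limma adjusted p = 0.00285 and 0.00339), not with median-ratio scaling (limma adjusted p = 0.0865 and 0.105). Acaa1b averaged 420.2 ± 95.6, 586 ± 182 and 477 ± 87.3 FPKM and was called in no comparison. The thiolases shared 34.0% and 35.5% of their windows with each other.

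Ehhadh measured 121, 155, 82.2, 125 and 384 FPKM in control, 188, 117, 172, 144 and 178 in model and 312, 96.1, 223, 87.3 and 149 in BBBPH. Control 3_4 and BBBPH 2_1 were the highest, and the groups overlapped throughout. Log2 fold changes were 0.08 ± 0.38 in model against control (limma adjusted p = 0.89), -0.03 ± 0.38 in BBBPH against model (limma adjusted p = 0.965) and 0.05 ± 0.38 in BBBPH against control (limma adjusted p = 0.938). With a standard error of this size, differences like those of most other genes were not detectable here.

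The 4 CYP4A omega-hydroxylases lie side by side on chromosome 4, from Cyp4a14 (chr4:115486200-115496142) to Cyp4a32 (chr4:115600969-115621602). Cyp4a10 measured 273, 302, 133, 119 and 579.8 FPKM in control, 774, 214, 454, 347 and 724 in model and 589.9, 146, 435, 125 and 496 in BBBPH. The groups overlapped, and none of the comparisons was called: 0.93 ± 0.52 in model against control (limma adjusted p = 0.166), -0.60 ± 0.52 in BBBPH against model (limma adjusted p = 0.417) and 0.32 ± 0.52 in BBBPH against control (limma adjusted p = 0.661). With 1 library left out the last pair ranged from -0.87 (without model 1_4) to -0.29 (without BBBPH 3_2) and from 0.07 (without control 2_2) to 0.64 (without control 3_4). Cyp4a14 measured 99.6, 162, 81.4, 66.8 and 969 FPKM in control, 753, 195, 532, 316 and 578 in model and 615, 315, 709.6, 294 and 787 in BBBPH. Control 3_4 was the highest of all 15 libraries, while the other 4 control libraries were below every diet-fed library.

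Cyp4a14 was called in BBBPH against control (1.70 ± 0.60, limma adjusted p = 0.0452), and not in model against control (1.47 ± 0.60, limma adjusted p = 0.0635) or in BBBPH against model (0.23 ± 0.60, limma adjusted p = 0.81). Without control 3_4 model against control became 2.13 (limma adjusted p = 0.0012), and without model 1_4 it became 1.75 (limma adjusted p = 0.0378). The call in BBBPH against control ended without any 1 control library but 3_4, without model 2_1, 2_3 or 3_4 and without any 1 BBBPH library but 2_2 (limma adjusted p = 0.0504 to 0.109). Other settings, among them median-ratio and quantile scaling, also ended this call (limma adjusted p within the same range). Cyp4a31 (8.0 ± 7.02, 5.27 ± 1.48 and 12.3 ± 5.87 FPKM) and Cyp4a32 (23.9 ± 7.79, 22.9 ± 5.15 and 27.8 ± 9.63) were called in no comparison. Cyp4a32, Cyp4a10 and Cyp4a31 shared 46.8%, 30.5% and 21.8% of their windows with other genes, chiefly each other, against 0.245% for Cyp4a14, so how reads were split between the first 3 is uncertain.

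Acyl-CoA thioesterases, which release the free acid from coenzyme A, also lie in 1 cluster, on chromosome 12 from Acot2 (chr12:83987861-83993873) to Acot3 (chr12:84052144-84060402). Acot3, a peroxisomal enzyme, measured 19.9, 38.9, 11.2, 26.7 and 46.4 FPKM in control, 21.1, 8.14, 18.1, 5.17 and 17.2 in model and 32.8, 34.0, 66.4, 35.3 and 66.2 in BBBPH. BBBPH and model did not overlap, and control overlapped with both. Acot3 rose by 1.76 ± 0.40 on the log2 scale in BBBPH against model (limma adjusted p = 0.00424). In model against control it was not called in FPKM but was called lower with median-ratio and quantile scaling.

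Acot4, also peroxisomal, whose promoter match is shown above, measured 14.2, 17.6, 10.4, 14.6 and 20.2 FPKM in control, 14.6, 8.7, 13.0, 8.14 and 13.5 in model and 14.9, 15.8, 27.6, 17.1 and 22.2 in BBBPH. The lowest BBBPH library lay just above the highest model library. Acot4 was 0.70 ± 0.20 higher in BBBPH than in model (limma adjusted p = 0.017). Acot1, the cytosolic enzyme, measured 50.2, 46.1, 13.3, 37.1 and 101 FPKM in control, 38.9, 13.8, 30.9, 26.0 and 57.3 in model and 78.0, 29.4, 124, 31.4 and 66.2 in BBBPH. The groups overlapped, with log2 fold changes of -0.43 ± 0.49 in model against control (limma adjusted p = 0.504), 0.89 ± 0.49 in BBBPH against model (limma adjusted p = 0.2) and 0.46 ± 0.49 in BBBPH against control (limma adjusted p = 0.502). Without control 2_1 the values against control were -0.82 in model and 0.07 in BBBPH, and without control 3_4 they were -0.12 and 0.78. Acot2, its mitochondrial relative, averaged 4.36 ± 3.64, 4.9 ± 0.676 and 9.08 ± 5.62 FPKM and was called in no comparison. Acot1, Acot2 and Acot3 shared 33.6%, 27.7% and 19.5% of their windows with other genes, and Acot4 shared 4.87%.

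The ketone body enzyme Bdh1, which converts acetoacetate to beta-hydroxybutyrate, was the single gene called higher in all 3 comparisons. It measured 61.8, 70.4, 71.3, 69.8 and 65.2 FPKM in control, 98.8, 74.7, 122, 103 and 94.8 in model and 97.8, 133, 117, 156 and 126 in BBBPH. No control library reached the lowest diet-fed library, and model and BBBPH overlapped. The log2 fold change was 0.52 ± 0.12 in model against control (limma adjusted p = 0.00425) and 0.87 ± 0.12 in BBBPH against control (limma adjusted p = 0.000372). In BBBPH against model it was 0.35 ± 0.12 (limma adjusted p = 0.0475). That last call ended without any 1 control library, any model library but 2_1 or any BBBPH library but 2_1 (limma adjusted p = 0.0532 to 0.126). It was also lost in other settings, among them TPM (limma adjusted p up to 0.22).

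Vnn1, a pantetheinase that recycles part of coenzyme A (chr10:23894688-23905343), had the largest fold change of the 40 genes. It measured 25.4, 27.4, 16.1, 17.9 and 24.9 FPKM in control, 82.2, 88.5, 92.5, 106 and 70.7 in model and 80.3, 67.9, 123, 84.1 and 82.5 in BBBPH. All 10 diet-fed libraries were far above control, and the 2 diet-fed groups overlapped. The log2 fold change was 1.95 ± 0.17 in model (limma adjusted p = 2.27e-06) and 1.92 ± 0.17 in BBBPH (limma adjusted p = 1.44e-05).

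Fabp1, the cytosolic fatty acid carrier and the most abundant of the 40 genes, whose promoter is shown above, measured 9306, 11919, 8557, 10435 and 8851 FPKM in control. In model it measured 8626, 5489, 9695, 10186 and 8980, and in BBBPH 10657, 13233, 14285, 15574 and 13406. BBBPH lay above all model libraries, and 1 control library exceeded the lowest BBBPH library. Against model, BBBPH was 0.66 ± 0.16 higher (limma adjusted p = 0.0057), but not with quantile scaling (limma adjusted p = 0.277). Against control it was 0.45 ± 0.16 higher (limma adjusted p = 0.042), a call that ended without any 1 control library but 1_5 or any 1 BBBPH library but 2_1 (limma adjusted p = 0.0576 to 0.107). Other settings, among them median-ratio and quantile scaling, also ended that call (limma adjusted p up to 0.447). Model against control stood at -0.21 ± 0.16 (limma adjusted p = 0.296), and at -0.06 without model 1_4.

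Pdk4, the kinase that turns off pyruvate dehydrogenase when fat is burned, showed the widest spread. It measured 1.4, 2.34, 3.93, 3.53 and 39.1 FPKM in control, 8.7, 6.56, 3.25, 4.09 and 5.93 in model and 23.9, 3.68, 37.6, 2.73 and 3.03 in BBBPH. Control 3_4, BBBPH 2_1 and BBBPH 3_1 were well above the other 12 libraries. Log2 fold changes were 0.12 ± 0.74 in model against control (limma adjusted p = 0.912), 0.52 ± 0.74 in BBBPH against model (limma adjusted p = 0.646) and 0.65 ± 0.74 in BBBPH against control (limma adjusted p = 0.534). Without BBBPH 3_1 the last pair became 0.0072 and 0.13, and without control 3_4 the values against control became 0.81 in model and 1.34 in BBBPH.

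Spread between libraries of a group was therefore unequal among the 40 genes. The residual SD on the log2 scale had a median of 0.191 over the 40 genes, against 0.148 over all genes tested. It was 1.34 for Pdk4, 1.07 for Cyp4a14, 0.92 for Cyp4a10, 0.88 for Acot1, 0.71 for Acot3, 0.67 for both Cyp4a31 and Ehhadh, and 0.64 for Acot2, and these 8 lay at or above the 98.6th percentile of all genes tested. Control 3_4 had the highest level of its group in 22 of the 40 genes, and control 2_1, the library with muscle RNA, the lowest in 25. Model 1_4 had the lowest level of its group in 29 of 40, with a median deviation of -0.26 from the group mean on the log2 scale. Without model 1_4 and BBBPH 2_2 the calls were 19 higher and 0 lower for model against control, 9 and 2 for BBBPH against model, and 23 and 0 for BBBPH against control. Over all 9575 genes these fits called 2661 and 703, 973 and 944, and 2002 and 316. With control 2_1 left out too, calls among the 40 genes were 17 and 1, 9 and 2, and 18 and 0, and over all genes 2533 and 678, 916 and 906, and 1822 and 288.

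**Figure D3:**
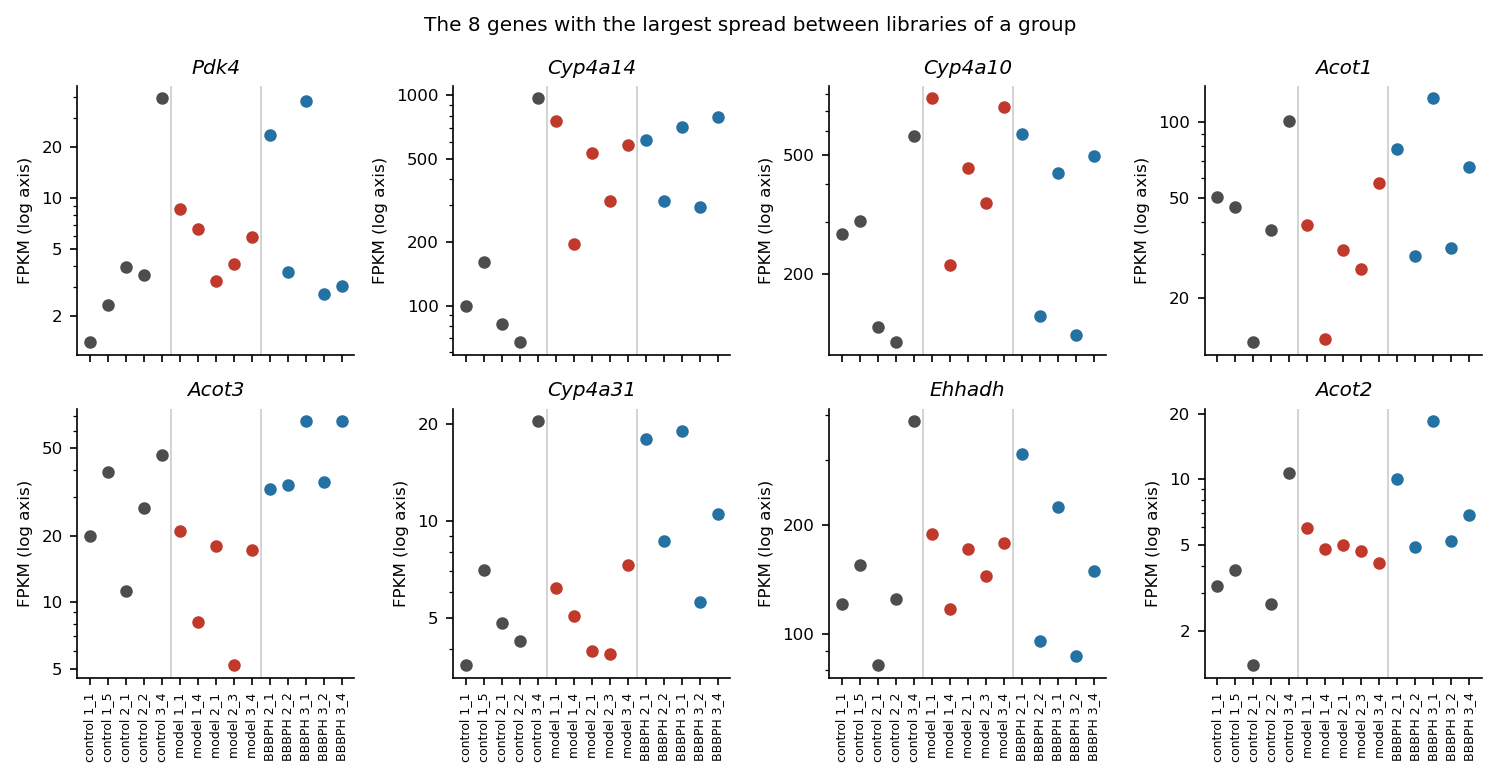
FPKM on a log axis (y) of the 8 genes with the largest residual SD, with 1 point for each of the 15 libraries (x), colored by group. Control 3_4, BBBPH 2_1 and BBBPH 3_1 are the highest for Pdk4, Cyp4a31 and Acot2, and Acot3 alone separates model from BBBPH.

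Of 16 listed clock genes 14 were tested, of which 2 were higher and 6 lower in model against control, 7 higher and 4 lower in BBBPH against model, and 3 higher and 1 lower in BBBPH against control. In either direction that is 8, 11 and 4 of 14, against 38.6%, 26.5% and 28.1% of all genes tested, so the last count was near the background. Nr1d1 stood at 1.35 in model against control and at -1.76 in BBBPH against model. Dbp, an output of the clock, measured 21.5, 31.7, 38.3, 29.3 and 14.6 FPKM in control, 6.03, 16.0, 32.1, 23.2 and 8.74 in model and 3.51, 36.3, 30.8, 52.1 and 43.0 in BBBPH, and was called in no comparison. Control 3_4 and BBBPH 2_1, high in Pdk4 and Ehhadh, were thus the lowest of their groups in Dbp, whereas BBBPH 3_1 was not. Model 1_1 and 3_4, low in Dbp, had Pdk4 at 8.7 and 5.93 FPKM, below those libraries. Within the model group, model 1_1 and 3_4 were the highest in Ehhadh, Cyp4a10, Cyp4a14 and Acot1, but not in Ppara, Cpt1a or Fabp1. The part of clock time or feeding in the levels of the 40 genes was not tested.

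**Figure D4:**
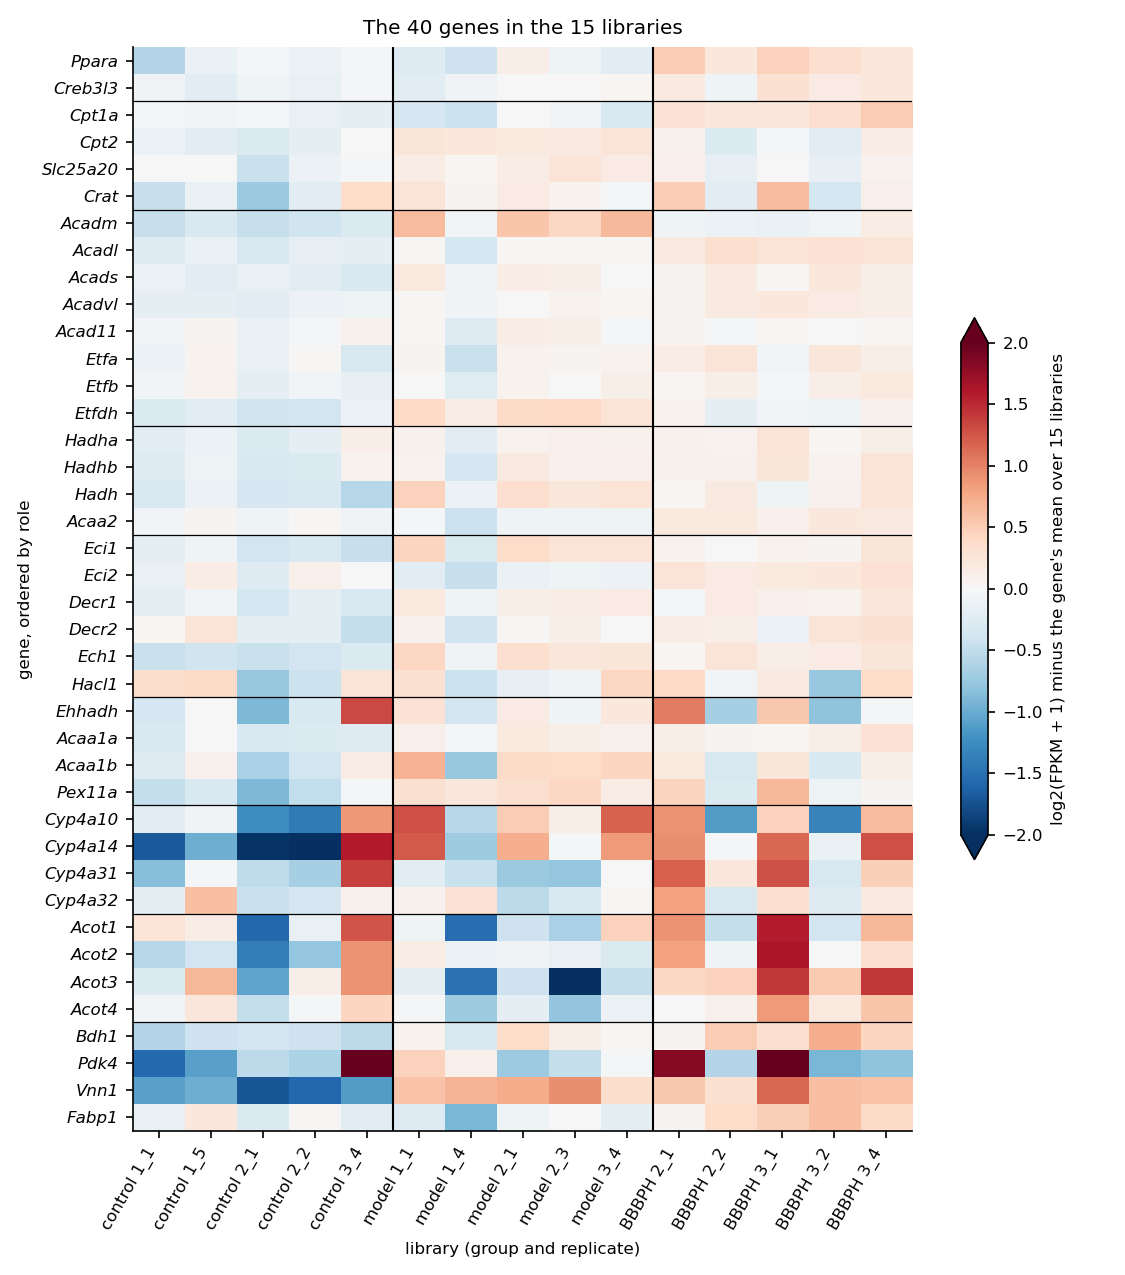
Log2(FPKM + 1) minus each gene's mean over 15 libraries (color, from -2 to 2), for the 40 genes (rows, ordered by role) in each library (columns, by group). Model 1_4 is the lowest of its group in 29 rows, and Vnn1 is low in the 5 control libraries.

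Other genes of the pathway were read from a list of 64, of which 62 were tested and Ppargc1a and Ppargc1b, coactivators, fell under the filter. In model against control 26 were called higher and 6 lower (29.9% and 8.64% of all genes tested), with a median log2 fold change of 0.16. The smallest adjusted p belonged to Crot, the peroxisomal carnitine octanoyltransferase, at 92.6 ± 28.9 FPKM in control and 263 ± 13.4 in model (1.55 ± 0.16, limma adjusted p = 9.21e-06). Also called were Acat1, a ketogenic thiolase (0.79), Aldh3a2, a fatty aldehyde dehydrogenase (0.87), Slc27a4, a fatty acid transporter (0.49), and Acsl4, an acyl-CoA synthetase, which was lower (-0.98).

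In BBBPH against model 8 were called higher and 9 lower, with a median of -0.02, and these counts were near the background of 14.2% and 12.2%. Crot was at 111 ± 19.7 FPKM in BBBPH, 1.25 lower on the log2 scale than in model (-1.25 ± 0.16, limma adjusted p = 6.88e-05). Acacb, which makes the malonyl-CoA that inhibits CPT1, was higher (1.59), as were Acsl3 (0.94), Acsl4 (0.84), Mlycd, which breaks malonyl-CoA down (0.44), and Txnip (1.02). In BBBPH against control 17 were called higher and 2 lower (24.4% and 3.7% of all genes tested), with a median of 0.20. Among those with the smallest adjusted p were Acat1 (0.60), Slc16a6, a ketone body exporter (0.73), Pex11g (0.47), Mgll, the monoacylglycerol lipase (0.52), and Slc27a5, lower (-0.55).

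Across the 3 comparisons the 40 genes fell into 9 patterns of calls, given here as a description since the comparisons share libraries. The calls are those in FPKM. Counts of these patterns over all genes are not given here, so they cannot be set against a background. The most common among called genes was higher in both diet-fed groups than in control with no call between those groups, in 9 genes (Acads, Acadvl, Hadh, Eci1, Decr1, Ech1, Acaa1a, Pex11a and Vnn1). Of these, Ech1 and Vnn1 alone kept both calls under all 4 scalings. Next came higher in BBBPH than in both other groups with no call between these, in 5 genes (Ppara, Cpt1a, Acadl, Eci2 and Fabp1). Among them, Ppara and Acadl alone kept both calls under all 4 scalings. Acadm and Etfdh were higher in model than in control, lower in BBBPH than in model and higher in BBBPH than in control, and Cpt2 shared the first 2 of these calls. Acaa2, Acot3 and Acot4 were called in BBBPH against model alone, and Creb3l3, Hadha, Hadhb and Cyp4a14 in BBBPH against control alone. The remaining patterns held Slc25a20 and Bdh1, and 14 genes had no call.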

How the data were processed

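Mouse liver RNA of 15 samples was extracted with TRIzol and made into libraries with the VAHTS Universal V6 kit, per the labels' protocols, which do not state the strand setting. The values are FPKM as the authors deposited them, 1 column per library. Per the submitters' processing notes, HISAT2, HTSeq, fastp, DESeq2 and mm10 were used, with no versions or roles. The annotation behind the values is not given in the sources used here.

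Libraries were grouped by their labels. The filter kept 9575 of 17527 genes, those whose mean reached 1 FPKM. They were fitted on log2(FPKM + 1), which makes changes of low genes smaller, using limma 3.58.1 (R 4.3.3). The model had a mean for each of 3 groups, 12 residual degrees of freedom and an eBayes prior that followed the mean level. Benjamini-Hochberg adjustment of 2-sided p-values ran over all genes of a comparison, with a call at an adjusted p under 0.05. The procedure was tested on simulated data. Fragment totals and whole counts were recovered from the steps of the FPKM values (lengths for 15267 genes, with 100% of their values above 0 within 0.02 of a whole number). Libraries of a group differed by a chi-square per gene of at least 30.8, where sampling noise gives 1. Model pairs that included model 1_4 differed most, at 232 to 360, against 39.7 to 81.4 for the other model pairs.

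The 40 genes, the lists and the tests were chosen with earlier results of these data known. All 40 may be named. Fold changes were given where a gene was called, and everywhere for Ppara, Cpt1a, Pdk4, Cyp4a10, Cyp4a14, Ehhadh, Acot1 and Fabp1. Values of each library were given for these 8 and for the 12 called genes with the largest fold change, and of the other pathway genes the 6 called with the smallest adjusted p in each comparison were named. Some genes that this rule or the lists took are not reported here. Library values of Acadl were added after they had been seen.

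Alternatives were another pseudocount (0.1) or filter (none, or 5 FPKM), TPM, median-ratio and quantile scaling, trend=FALSE, robust=TRUE, a 2-group fit, blocks of the replicate number or of its first digit, and leaving out each library in turn. Chosen later, with the data seen, were voom run on the recovered counts (9567 genes) and fits without 2 libraries (model 1_4, BBBPH 2_2) or 3 (also control 2_1). Shared windows are the share of a gene's 50-base stretches found in another gene's transcripts in GENCODE M21, the source of all gene positions (GRCm38). Other steps used Python 3.11.15 (pandas 2.3.3, numpy 2.4.6, matplotlib 3.10.9, scipy 1.17.1).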

Additional observations from a re-analysis of the deposited data

Results flagged for a closer look

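In 17 of 120 sets of 5 libraries (each of the 40 genes in each group), 1 library stood apart from the other 4 by Dixon's test, which chance alone would give in about 1 in 20 sets. Model 1_4 gave 7 of these and was the lowest each time, and control 3_4 gave 5 and was the highest each time.

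In model 1_4, Acadl was at 131 FPKM (169.8 to 171 in the other model libraries), Etfa at 25.5 (36.3 to 37.1), Hadha at 169 (209 to 212) and Hadhb at 37.6 (50.3 to 54.4). Acaa2 was at 477 FPKM there (598 to 628), Eci1 at 119 (174 to 196) and Decr2 at 113 (149.6 to 161). In control 3_4, Ehhadh was at 384 FPKM (82.2 to 155 in the other control libraries), Cyp4a14 at 969 (66.8 to 162) and Cyp4a31 at 20.3 (3.57 to 7.04). Acot2 was at 10.7 FPKM there (1.39 to 3.83) and Pdk4 at 39.1 (1.4 to 3.93).

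Ppara was low in control 1_1, at 27.3 FPKM (37.6 to 40.6 in the others). Acaa1a was high in control 1_5, at 92.6 FPKM (73.7 to 76.5). BBBPH 3_4 was high in Acadm, at 283 FPKM (231 to 246), and in Eci1, at 174 FPKM (145 to 153). Acaa2 was low in BBBPH 3_1, at 690 FPKM (733 to 746). The cause of these values was not tested.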

How the results depend on the processing

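Of 47 calls of single genes, 22 stayed past the threshold in the same direction in every alternative run but the 2 blocks, and 0 changed direction in any of the 29 alternatives. Median-ratio scaling gave 8 higher and 4 lower genes in model against control (14 and 0 in FPKM) and 5 higher in BBBPH against control (21), and quantile scaling gave 2 lower and 12 higher in these. Both scalings centre the libraries on each other by construction. With 3 libraries out, 1 gene was lower in model against control.

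The replicate numbers were not shown to pair the libraries: residuals of 8 pairs with the same number correlated between -0.33 and 0.02, and 0 of 10 libraries correlated best with their own number. With the number as a replicate block, libraries whose number occurs once, such as BBBPH 3_1 and 3_2, carried no weight between groups. Fewer residual degrees of freedom were left. Limma then called 0 genes higher and 1 lower in BBBPH against model, and 5 higher in BBBPH against control. Over all genes it called 101 higher and 204 lower, and 135 higher and 50 lower. At an unadjusted p under 0.05 the counts in BBBPH against model were 7 and 2, with no counts over all genes given here. With the first digit of the number as a block, limma called 8 genes higher and 3 lower in BBBPH against model. It called 11 higher in BBBPH against control and 1 lower in model against control. Over all genes the same fit called 909 higher and 886 lower in BBBPH against model. It called 1553 higher in BBBPH against control and 813 lower in model against control. Leaving out 1 library in turn gave 0 to 2 lower genes in model against control, 2 to 5 lower in BBBPH against model and 13 to 23 higher in BBBPH against control. Counts over all genes are not given here for those fits.

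Some log2 fold changes with no call changed sign. Ppara in model against control became -0.143 with median-ratio and -0.107 with quantile scaling, and -0.0885 to 0.0732 with 1 library out. Pdk4 there became -0.0022, -0.0224, -0.248 under the replicate block, -0.0007 with 3 libraries out and -0.2015 to 0.8138 with 1 library out. Ehhadh there became -0.0806 with median-ratio scaling, -0.0309 with 3 libraries out and -0.1366 to 0.4161 with 1 out. Fabp1 there became 0.0214 under the replicate block. In BBBPH against model, Ehhadh became 0.0331 with 2 or 3 libraries out, 0.0406 under the replicate block and -0.2832 to 0.1733 with 1 out. Cyp4a14 there became -0.2471 under the block of first digits and -0.0516 to 0.434 with 1 out. In BBBPH against control, Ehhadh became -0.1276 with median-ratio scaling, -0.0156 with quantile scaling, -0.1341 under the block of first digits and -0.2062 to 0.3858 with 1 out. The causes were not tested. The lowest count behind any value was 111 fragments, and how much counting error adds to the spread was not tested.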
